A study of Mus musculus with 8 samples.

Results

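The TCR J alpha segments are the joining segments of the T cell receptor alpha chain gene. They were taken as every gene whose symbol starts with Traj, which gave 60 of the 55359 genes listed, from Traj61 to Traj1 with no Traj10. They were ordered by start position and compared for level, for share of the summed Traj signal and for change per segment.

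Total RNA was sequenced from 8 samples of thymocytes of mice aged 5 weeks. The cells were sorted as double positive (DP, carrying both CD4 and CD8) with TCR beta ranging from absent to intermediate on the surface. The 4 Lck-cre samples (replicates 5 to 8) had the genotype LSL-Sting1-N153S;Lck-cre, in which Cre recombinase under the Lck promoter, active in T cell progenitors, can remove a stop cassette in front of STING with the gain-of-function substitution N153S. The 4 control samples (replicates 1 to 4) were LSL-Sting1-N153S/+ without Cre. All 8 samples therefore carried the LSL-Sting1-N153S allele, and 3 males and 1 female made up each group (the females being replicates 5 and 1). The labels do not say if every library is a different animal, and p-values reflect only the spread among these 8 libraries.

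A J alpha segment is joined to a V alpha segment by the RAG recombinase in DP thymocytes, and the joined exon is then spliced to Trac, the constant region. The first joins use segments at the 5′ end of the array, next to the V segments, and a cell that is not yet positively selected can replace a join with one further 3′, so the position of the segments in use moves 3′ with time spent at the DP stage. Transcripts that start at the T early alpha promoter upstream of Traj61, or at a promoter near Traj49, cross segments that have not been joined, and the FPKM of a segment counts such reads and those of joined mRNAs alike.

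The sequences below show the members at the positions the results turn on. They include the 5′ end, Traj49, the first to fall along the array (Traj31) and the 3′ end. The 2 largest falls by log2 change (Traj9 and Traj26) and the J segment of the invariant NKT receptor (Traj18) are also shown. All are GENCODE M21 transcripts on the plus strand of GRCm38, printed 5′ to 3′. The capitals mark the FGXG motif (the Phe-Gly-any-Gly codons in which J regions are known to end their CDR3). All 60 members had a GENCODE entry with the same gene ID and length.
Traj61, chr14:54155005-54155076: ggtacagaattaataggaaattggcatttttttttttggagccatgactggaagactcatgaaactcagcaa
Traj60, chr14:54155933-54155986: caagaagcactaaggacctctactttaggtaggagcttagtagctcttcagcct
Traj59, chr14:54156133-54156196: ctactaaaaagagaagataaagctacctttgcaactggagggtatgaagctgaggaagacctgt
Traj58, chr14:54157280-54157342: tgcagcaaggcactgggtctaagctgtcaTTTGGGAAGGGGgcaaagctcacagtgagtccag
Traj49, chr14:54168686-54168747: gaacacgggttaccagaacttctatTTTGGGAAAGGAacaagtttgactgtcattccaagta
Traj31, chr14:54187895-54187951: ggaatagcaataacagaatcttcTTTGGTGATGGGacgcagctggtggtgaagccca
Traj26, chr14:54194490-54194549: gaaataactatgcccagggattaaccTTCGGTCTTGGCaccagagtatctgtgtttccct
Traj18, chr14:54200777-54200842: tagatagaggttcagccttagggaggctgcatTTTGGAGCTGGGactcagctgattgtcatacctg
Traj9, chr14:54209393-54209450: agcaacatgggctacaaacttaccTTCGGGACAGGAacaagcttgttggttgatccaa
Traj2, chr14:54217836-54217901: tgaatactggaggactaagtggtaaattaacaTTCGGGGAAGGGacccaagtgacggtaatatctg
Traj1, chr14:54218814-54218842: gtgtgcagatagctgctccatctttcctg

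The motif was found in 43 of the 60 members, once in each, on the strand of the gene. Among all GENCODE transcripts of at least 60 bases, 0.736% held it in their first 60 bases. GENCODE types 9 members as pseudogenes (Traj61, Traj60, Traj55, Traj54, Traj51, Traj36, Traj14, Traj8 and Traj1), and of these Traj54 held the motif. Traj59 is typed as a gene and did not hold it. The deposited tables place Traj61 at 54392462 to 54392533 and Traj1 at 54456271 to 54456299 on the plus strand of chromosome 14, in a build they do not name. All 60 starts lay 237457 bases above those of GRCm38, so the order and spacing were the same. The array spanned 63.8 kb, and its members were 29 to 72 bases long with a median of 61. Even the closest pair by sequence, Traj31 and Traj7, shared 72.9% identity.

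Sting1, the gene under the stop cassette, was examined to check the labels. It had 221, 85.4, 130 and 232 FPKM in Lck-cre replicates 5 to 8, against 15.3, 11.6, 13.4 and 11.9 FPKM in control replicates 1 to 4. FPKM scales mapped fragments by gene length and library size. The tables hold FPKM, TPM and coverage without counts, so total depth is unknown. As a median over the Traj segments, 1 FPKM stood for a coverage of 7.65 to 7.86 reads per base in Lck-cre samples and 7.53 to 7.89 in control samples.

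DP markers were high in both groups. Over 12 of them, the summed FPKM was 4843 to 6187 in Lck-cre samples and 6207 to 6668 in control samples, so every Lck-cre sample lay below every control. By limma 4 of the 12 fell (Cd4, Rag1, Rag2 and Themis) and Ptcra, the pre-TCR alpha chain, rose. For this and the marker lists below, 15.4% of all genes tested rose and 10.4% fell. Markers of the earlier double negative stage summed to 10.9 to 21.7 FPKM in Lck-cre samples and 8.79 to 13.9 FPKM in control samples over 6 genes. Of the 3 of these tested, Dtx1, a Notch target, rose (log2 change 0.71, adjusted p = 0.00985 by limma). Il2ra averaged 3.68 FPKM in Lck-cre and 2.16 FPKM in control samples and did not pass (adjusted p = 0.0734 by limma), and Cd44 averaged 1.98 and 2.51 FPKM in the same order and did not pass either. Hes1, Il7r and Kit, not tested, averaged 2.06, 0.504 and 0.649 FPKM in Lck-cre and 0.501, 0.212 and 0.682 FPKM in control samples. Gamma delta T cell markers summed to 64.7 to 111 FPKM in Lck-cre samples over 6 genes, against 44.0 to 49.96 FPKM in control samples. Trdc alone averaged 52.2 and 27.2 FPKM in the same order. Of the 4 tested 3 rose (Trdc, Trgc1 and Trgc2). Il17rb averaged 15.1 FPKM in both groups and did not pass (adjusted p = 0.954 by limma). Sox13 and Blk, not tested, averaged 0.636 and 0.310 FPKM in Lck-cre and 0.275 and 0.200 FPKM in control samples. Mature single positive markers summed to 103 to 150 FPKM in Lck-cre and 88.7 to 103 FPKM in control samples over 8 genes, with 2 of 4 tested rising (Klf2 and Gzma) and S1pr1, Foxp3 and Zbtb7b at an average of 0.148 FPKM or less in both groups. The part of double negative, gamma delta or mature cells in the Traj results was not tested. In sorted bulk samples, fewer cells using a segment and less RNA per cell cannot be told apart.

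As a whole, the J alpha segments were lower in Lck-cre samples. Their summed level was 216, 236, 213 and 183 FPKM in Lck-cre replicates 5 to 8, against 317, 381, 280 and 322 FPKM in control replicates 1 to 4. Every Lck-cre sample lay below every control sample. The means were 212 ± 21.8 FPKM in Lck-cre and 325 ± 41.6 FPKM in control samples (SD, n = 4 each), a ratio of 0.652. As a sum over chosen members, it carries no test.

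Trac, the constant region to which every J alpha segment is spliced, moved by a like factor. It had 300.1, 455, 379 and 274 FPKM in Lck-cre replicates 5 to 8, and 575, 517, 512 and 492 FPKM in control replicates 1 to 4, with no overlap between the groups. Its log2 change was -0.60 (SE 0.15, adjusted p = 0.0223 by limma). The summed Traj level divided by Trac was 0.617 ± 0.0922 in Lck-cre and 0.622 ± 0.0907 in control samples (SD, n = 4 each), with overlapping ranges of 0.519 to 0.718 and 0.548 to 0.737. The call of Trac ended without Lck-cre replicate 5 (adjusted p = 0.0996), without control replicate 1 (0.0983) or without control replicate 2 (0.0597), and with no filter on low values (0.0936). Replicates 5 and 1 are the females. With sex in the fit, leaving out either female takes the other out of the comparison too. For every gene, both of these fits therefore rest on the males alone (Trac log2 change -0.487 in each and in males only).

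The fall was uneven along the array. The 4 segments at the 5′ end, Traj61, Traj60, Traj59 and Traj58, rose in Lck-cre samples by 1.34 to 1.39 times, while 20 segments from Traj31 to Traj1 fell to between 0.103 and 0.443 times the control mean. Between them, from Traj57 to Traj32, no tested segment passed in either direction. Of the 49 members tested with limma, 24 (49.0%) were called, against 25.8% of all 12337 genes tested. Of the members 4 (8.16%) rose and 20 (40.8%) fell, against 15.4% and 10.4% of all genes. On the TPM scale the members gave 4 rises and 26 falls, while over all genes 1300 rose and 2067 fell, against 1901 and 1279 on the FPKM scale. Coverage scaled to its sum gave 3 rises and 22 falls among the members, and 1267 rises and 2337 falls over all genes. With no filter on low values 1 of the 60 members rose and 6 fell, against 696 and 360 of all 28851 genes. The median log2 change was -1.01 over the tested segments and 0.01 over all genes.

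**Figure D1:**
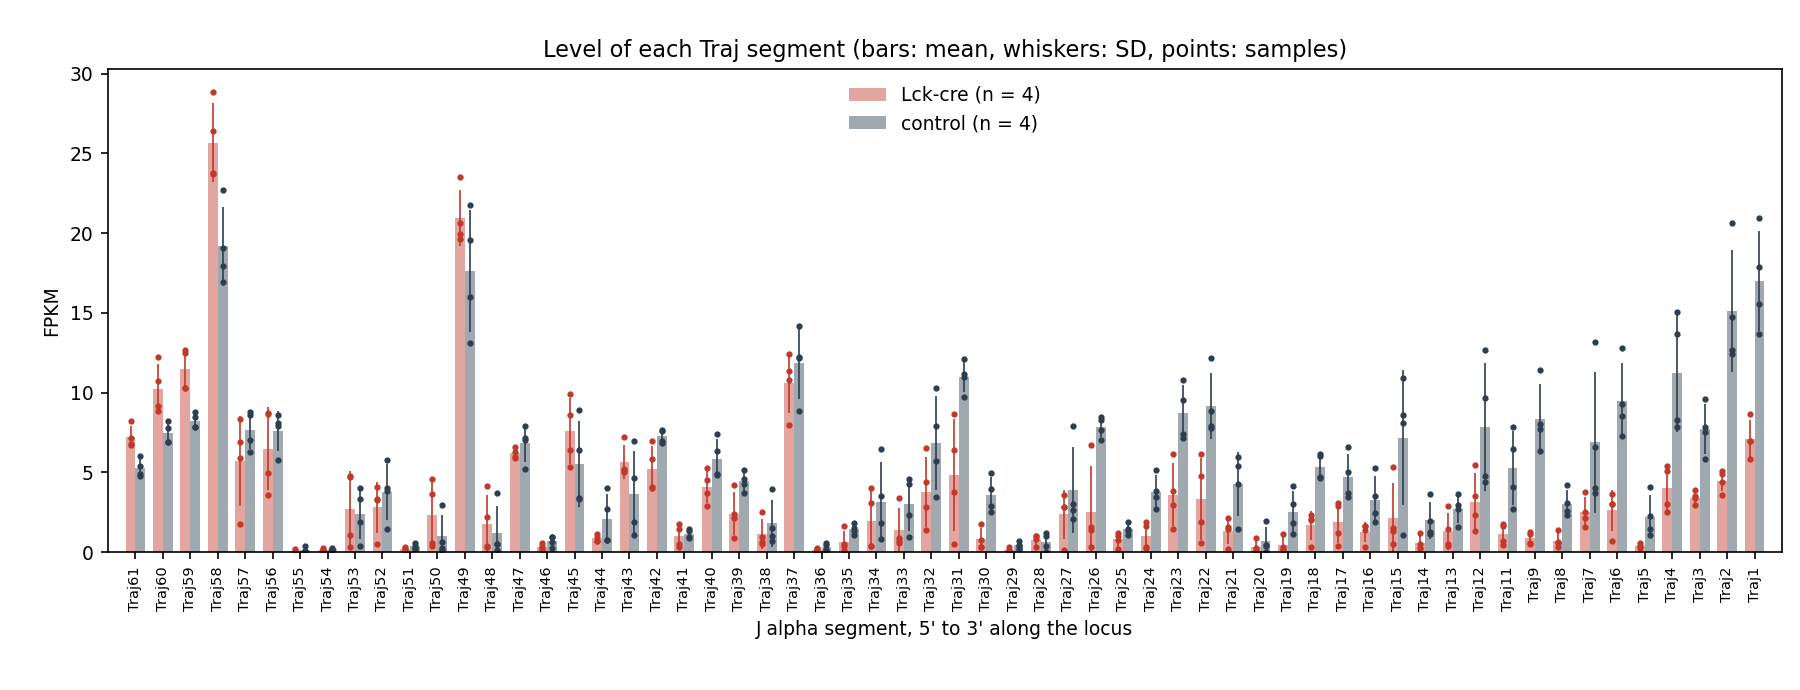
FPKM (y axis, linear) of the 60 Traj segments in order along the locus (x axis), with Lck-cre in red and control in dark blue. Bars are means, whiskers SDs and points single samples (n = 4 each). The red bars stand above the blue ones from Traj61 to Traj58 and below them at every segment from Traj27 to Traj1.

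A filter of at least 1 FPKM in at least 4 samples left 49 members, and 11 were not tested (Traj55, Traj54, Traj51, Traj50, Traj48, Traj46, Traj44, Traj36, Traj29, Traj28 and Traj20). Of the 49, 21 reached 1 FPKM in all 8 samples, and 23 did so in all 4 control samples but not in all 4 Lck-cre samples, so that part of the tested set passed through the controls. With a filter on the mean over all samples, 52 members were tested and the same counts of 4 rose and 20 fell. A member high only in the controls can pass that filter as well, so it does not remove this limit. Over all 60 members, tested or not, 4 lay higher in every Lck-cre sample than in any control and 18 lay lower, against 9.04% and 7.24% of the 28851 genes with a value above 0. The calls rested on limma's sharing of variance between genes. With each gene's own spread, a setting added after the data were seen, limma's fit called 0 members. In that setting 20 of the 49 members had an unadjusted p under 0.05, as did 4591 of all 12337 genes. Of the 24 calls, 10 held whichever single sample was left out: Traj59, Traj30, Traj11, Traj9, Traj8, Traj6, Traj5, Traj3, Traj2 and Traj1. Among those fits, the ones without either female rest on the same males. All of them kept the filter set on all 8 samples. Traj5 reached 1 FPKM only in the 4 control samples, so a filter reset without any 1 of them would have left it untested.

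At the 5′ end, Traj58 is the first member with the FGXG motif and had the highest mean level of the array. It had 26.4, 23.8, 23.7 and 28.8 FPKM in Lck-cre replicates 5 to 8, against 16.96, 17.9, 19.1 and 22.7 FPKM in control replicates 1 to 4. The lowest Lck-cre sample lay just above the highest control, and coverage was at least 186 reads per base in every Lck-cre sample. By limma it changed by 0.42 on the log2 scale (SE 0.10, adjusted p = 0.0201), with a 95% interval of 0.19 to 0.65. The call ended without Lck-cre replicate 5 or either of control replicates 1 and 2, with adjusted p up to 0.0894.

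The 3 members upstream of it, none of which holds the motif, moved by a like amount. Traj59 had 10.3, 10.3, 12.7 and 12.5 FPKM in Lck-cre replicates 5 to 8, against 7.85, 7.83, 8.44 and 8.80 FPKM in control replicates 1 to 4. Its log2 change was 0.45 (SE 0.09, adjusted p = 0.0107 by limma), and it was the 1 rise that held with each sample left out, the highest adjusted p being 0.0463. The pseudogene Traj60 averaged 10.2 ± 1.55 FPKM in Lck-cre and 7.44 ± 0.649 FPKM in control samples. Traj61, the pseudogene at the very start, averaged 7.21 ± 0.718 FPKM in Lck-cre and 5.27 ± 0.576 FPKM in control samples (SD, n = 4 each). In both pseudogenes the groups did not overlap. The call of Traj61 was lost in 3 and that of Traj60 in 6 of the 8 fits with 1 sample left out. Both calls ended without either female, which leaves the males alone, and without control replicate 2. Over all samples left out, adjusted p by limma reached 0.0877 for Traj61 and 0.0789 for Traj60.

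The next segment, Traj57, was not called. It averaged 5.72 ± 2.83 FPKM in Lck-cre and 7.66 ± 1.21 FPKM in control samples (SD, n = 4 each), with overlapping groups and an adjusted p of 0.287 by limma. It lay at 8.32, 5.89, 1.74 and 6.91 FPKM in Lck-cre replicates 5 to 8, so replicate 7 stood below the others, and the log2 change was -0.55 with it and -0.11 without it. Its sequence was 70.8% identical to that of Traj58, the closest to it in the array.

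Traj49 and Traj37 were the most abundant members in the stretch where no segment passed. Traj49 had 23.5, 20.7, 19.7 and 19.9 FPKM in Lck-cre replicates 5 to 8, against 13.1, 19.6, 16.02 and 21.8 FPKM in control replicates 1 to 4. The groups overlapped (log2 change 0.26, 95% confidence interval -0.05 to 0.58, adjusted p = 0.183 by limma). Traj37 averaged 10.6 ± 1.91 FPKM in Lck-cre and 11.8 ± 2.21 FPKM in control samples (SD, n = 4 each; log2 change -0.15, adjusted p = 0.522 by limma).

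Positive values ended at Traj43. Of the 12 tested members up to and including it, 7 had a log2 change above 0, and all 37 tested members beyond it had one below 0. Traj45 averaged 7.56 ± 2.07 FPKM in Lck-cre and 5.51 ± 2.69 FPKM in control samples, and Traj43 averaged 5.64 ± 1.06 and 3.64 ± 2.70 FPKM in the same order (SD, n = 4 each). Neither passed (adjusted p of 0.227 and 0.117 by limma). Traj33, the J segment of the invariant receptor of MAIT cells, missed the threshold at 1.37 ± 1.37 FPKM in Lck-cre and 3.03 ± 1.70 FPKM in control samples (adjusted p = 0.0525 by limma), and had overlapping groups.

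**Figure D2:**
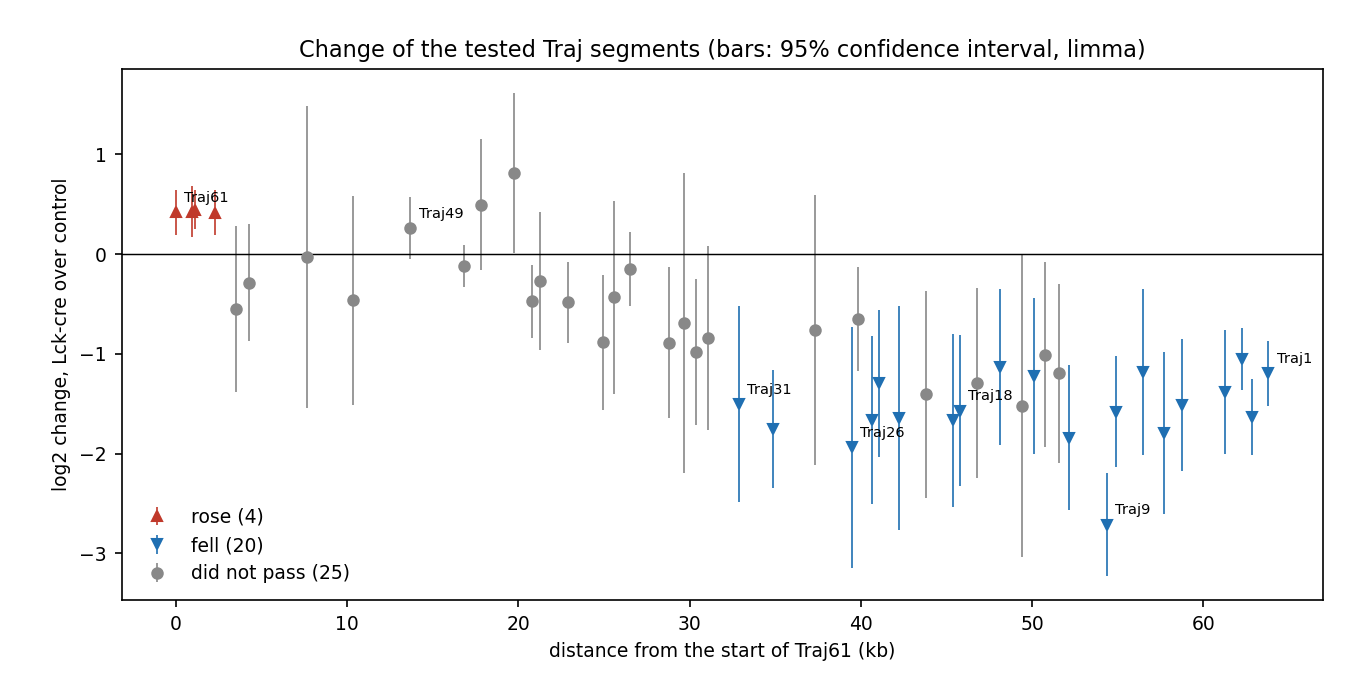
Log2 change in Lck-cre over control (y axis) of the 49 tested segments by distance from the start of Traj61 in kb (x axis); triangles mark calls (4 rose, 20 fell), grey points segments that did not pass, and bars 95% confidence intervals from limma. Values above 0 stop at Traj43, and all calls from Traj31 on are falls.

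The first segment to fall was Traj31. It had 0.491, 8.68, 6.40 and 3.74 FPKM in Lck-cre replicates 5 to 8, against 10.98, 12.1, 9.70 and 11.2 FPKM in control replicates 1 to 4. The groups did not overlap, but the Lck-cre samples spread from near 0 to close to the lowest control. Its log2 change was -1.50 (SE 0.44, adjusted p = 0.0351 by limma), and the call was lost in 6 of the 8 fits with 1 sample left out, with adjusted p up to 0.078. Those without either female are in effect the same fit. Traj30, next to it, had 1.78, 0.332, 0.768 and 0.296 FPKM in Lck-cre replicates 5 to 8, against 3.93, 2.48, 4.96 and 2.90 FPKM in control replicates 1 to 4. Its log2 change of -1.75 (SE 0.26, adjusted p = 0.0075 by limma) held with each sample left out.

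Traj26 also varied widely between Lck-cre samples, in another order than Traj31. It had 1.59, 6.72, 1.37 and 0.294 FPKM in Lck-cre replicates 5 to 8, against 8.27, 7.05, 8.44 and 7.67 FPKM in control replicates 1 to 4. Lck-cre replicate 6 lay close to the controls and replicate 8 lowest, whereas at Traj31 replicate 5 was lowest. The log2 change was -1.94 (SE 0.54, adjusted p = 0.0304 by limma), -2.55 without Lck-cre replicate 6 and -1.43 without Lck-cre replicate 8. The call was lost in 6 of the 8 fits with 1 sample left out, with adjusted p up to 0.0984. Again, those without either female are in effect the same fit.

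Traj18 is the J segment of the invariant receptor of NKT cells. It had 2.34, 2.05, 1.99 and 0.312 FPKM in Lck-cre replicates 5 to 8, against 6.13, 5.99, 4.61 and 4.68 FPKM in control replicates 1 to 4. All Lck-cre samples lay below all controls, with a mean 0.313 times that of the controls (log2 change -1.57, SE 0.33, adjusted p = 0.0138 by limma). The call ended without Lck-cre replicate 5 or control replicate 1, with adjusted p up to 0.0514. Its neighbour Traj17 did not overlap between groups either, with 0.379 to 3.05 FPKM in Lck-cre and 3.47 to 6.62 FPKM in control samples, and missed the threshold (adjusted p = 0.0504 by limma).

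The largest fall of the array was that of Traj9. It had 1.24, 1.15, 0.557 and 0.513 FPKM in Lck-cre replicates 5 to 8, against 6.34, 11.4, 8.04 and 7.68 FPKM in control replicates 1 to 4. Every Lck-cre sample lay far below the lowest control, with a mean 0.103 times that of the controls. By limma it changed by -2.71 on the log2 scale (SE 0.23, adjusted p = 0.00366), with a 95% interval of -3.23 to -2.20. Coverage fell as low as 3.93 reads per base in the Lck-cre samples, so single reads weigh there. Without any 1 sample the adjusted p was at most 0.0143.

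Next to it, Traj11 had 1.75, 1.61, 0.692 and 0.414 FPKM in Lck-cre replicates 5 to 8, against 6.49, 7.83, 2.69 and 4.11 FPKM in control replicates 1 to 4 (log2 change -1.84, SE 0.32, adjusted p = 0.00907 by limma). Traj6, whose sequence was 69.4% identical to that of Traj9, had 3.02, 3.02, 3.66 and 0.720 FPKM in Lck-cre replicates 5 to 8, against 8.52, 12.8, 9.25 and 7.26 FPKM in control replicates 1 to 4 (log2 change -1.79, SE 0.36, adjusted p = 0.0119 by limma). In both segments all Lck-cre samples lay below all controls. The pseudogene Traj8, between these, averaged 0.719 ± 0.479 FPKM in Lck-cre and 3.03 ± 0.853 FPKM in control samples (SD, n = 4 each), and fell as well.

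At the 3′ end all of the last 5 members fell. Traj5 averaged 0.378 ± 0.116 FPKM in Lck-cre and 2.21 ± 1.35 FPKM in control samples, Traj4 averaged 4.002 ± 1.45 and 11.2 ± 3.69 FPKM in the same order, and Traj3 averaged 3.42 ± 0.379 and 7.71 ± 1.55 FPKM (SD, n = 4 each). No Lck-cre sample reached any control sample in these 3 members. Traj5 was the 1 tested member that no Lck-cre sample brought to the minimum of 1 FPKM. Traj2 had 4.36, 5.07, 3.57 and 4.88 FPKM in Lck-cre replicates 5 to 8, against 14.7, 20.6, 12.7 and 12.4 FPKM in control replicates 1 to 4 (log2 change -1.63, SE 0.17, adjusted p = 0.00565 by limma).

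Traj1, a pseudogene of 29 bases that starts closest to Trac, fell while the pseudogenes at the other end rose. It had 6.99, 8.64, 6.97 and 5.86 FPKM in Lck-cre replicates 5 to 8, against 15.5, 20.9, 13.7 and 17.9 FPKM in control replicates 1 to 4. The groups lay well apart, and coverage was at least 44.9 reads per base in every Lck-cre sample. The log2 change was -1.20 (SE 0.15, adjusted p = 0.00619 by limma). Traj1 lies 1.68 kb from the start of Trac, whose own log2 change was smaller, and the difference between the changes was not tested.

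Among the other members, Traj24, Traj23, Traj22, Traj19, Traj16, Traj14 and Traj7 fell, with log2 changes of -1.67 to -1.13. In Traj19, Traj14 and Traj7 the groups overlapped. All 7 calls ended without control replicate 2. Over all samples left out, their highest adjusted p by limma lay between 0.0516 and 0.122.

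Divided by rank into 3 blocks of 20 members, the array showed the shift as levels. The 5′ block, Traj61 to Traj42, summed to 126, 113, 119 and 134 FPKM in Lck-cre replicates 5 to 8, against 95.4, 115, 103 and 119 FPKM in control replicates 1 to 4, with overlapping groups. The middle block, Traj41 to Traj22, summed to 44.4, 68.4, 52.9 and 23.3 FPKM in Lck-cre and to 94.1, 93.0, 82.5 and 91.6 FPKM in control samples, in the same order. The 3′ block, Traj21 to Traj1, summed to 44.7, 54.5, 40.3 and 25.5 FPKM in Lck-cre and to 128, 173, 95.2 and 111 FPKM in control samples. In the middle and 3′ blocks every Lck-cre sample lay below every control. The Lck-cre mean was 1.14 times the control mean in the 5′ block, 0.523 times in the middle and 0.325 times in the 3′ block.

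By calls, the 5′ block had 4 rises and 0 falls among 13 tested members, with limma at an adjusted p of 0.05. The middle block had 0 rises and 6 falls among 17, and the 3′ block 0 rises and 14 falls among 19. Over all genes 15.4% rose and 10.4% fell. The median log2 changes of the tested members were 0.26, -0.88 and -1.41 in the order of the blocks. With no filter on low values, over all 60 members, they were -0.04, -0.80 and -1.39. The 5′ median was thus above 0 only among members that passed a filter. Spearman's rho between rank and log2 change was -0.79 over the 49 tested segments, which share libraries and reads of the same transcripts, so it is a description. The mean level over both groups together had no such order, with a rho of -0.01 between rank and mean FPKM over all 60 members. Within groups the levels differed. From 5′ to 3′ the block sums averaged 123, 47.2 and 41.2 FPKM in Lck-cre and 108, 90.3 and 127 FPKM in control samples.

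**Figure D3:**
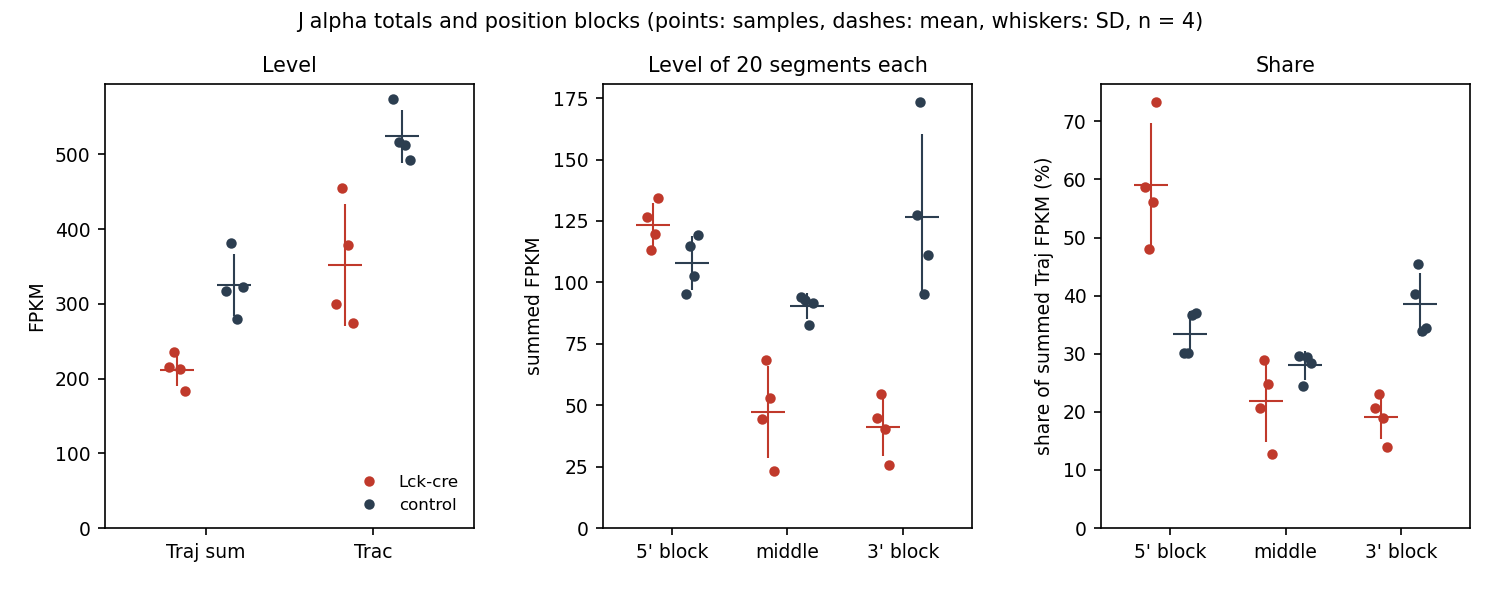
Summed Traj and Trac level (left), summed FPKM of the 20 segments of each position block (middle) and their share of summed Traj FPKM in percent (right), in Lck-cre (red) and control (dark blue); points are samples, dashes means, whiskers SDs, n = 4 each. The groups are apart in the middle and 3′ blocks by level, and in the 5′ and 3′ blocks by share.

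As shares, the 5′ block held 58.7, 48.0, 56.2 and 73.4% of the summed Traj FPKM in Lck-cre replicates 5 to 8, against 30.1, 30.1, 36.6 and 37.1% in control replicates 1 to 4. The 3′ block held 20.7, 23.1, 18.9 and 13.9% in Lck-cre and 40.2, 45.5, 34.0 and 34.5% in control samples. In both blocks the groups did not overlap. The middle block held 21.8 ± 6.95% in Lck-cre and 28.0 ± 2.44% in control samples (SD, n = 4 each), with overlap. Shares depend on each other, since they add up to the whole.

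The balance point moved accordingly. The share-weighted mean rank, with Traj61 as 1 and Traj1 as 60, was 22.1, 25.3, 22.5 and 17.4 in Lck-cre replicates 5 to 8, against 33.1, 34.99, 30.6 and 30.6 in control replicates 1 to 4. The means were 21.8 ± 3.29 in Lck-cre and 32.3 ± 2.12 in control samples (SD, n = 4 each), a difference of -10.5 ranks. In distance, the weighted mean lay 22.5 ± 3.60 kb from the start of Traj61 in Lck-cre and 33.9 ± 2.25 kb in control samples. Counted from the 5′ end, 50% of the signal was reached at Traj45, Traj40, Traj45 and Traj49 in Lck-cre replicates 5 to 8, and at Traj26, Traj23, Traj31 and Traj32 in control replicates 1 to 4.

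**Figure D4:**
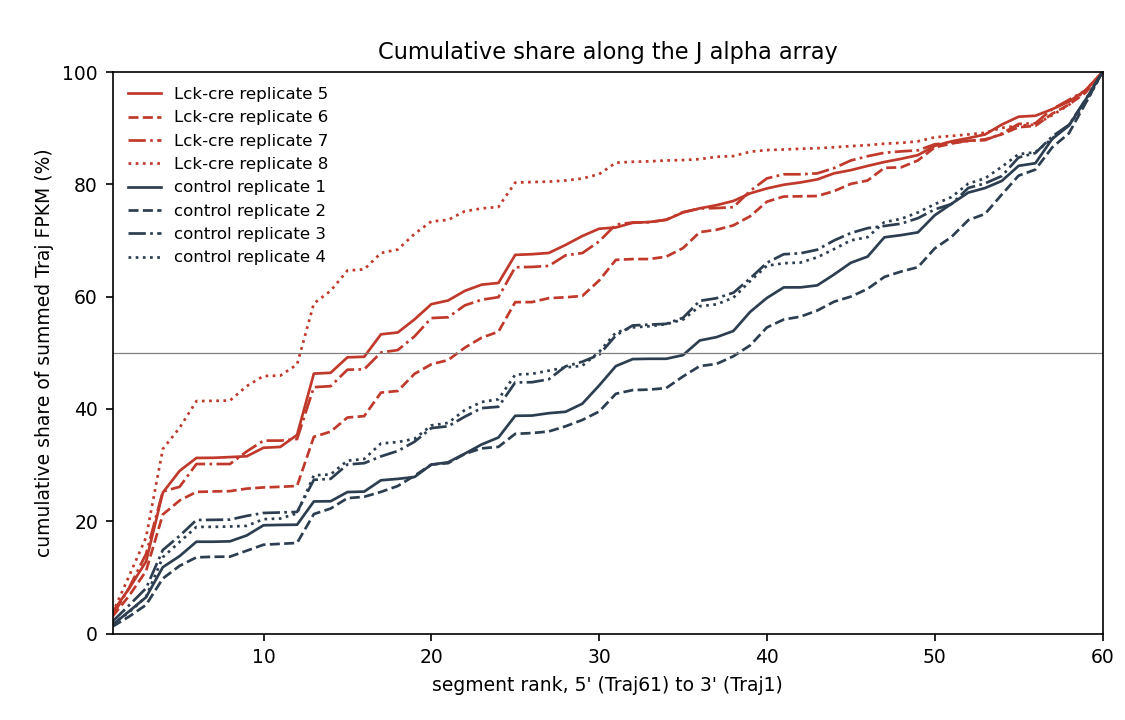
Cumulative share of summed Traj FPKM in percent (y axis) by segment rank from Traj61 to Traj1 (x axis), 1 line per sample, Lck-cre red and control dark blue, with a grey line at 50%. The Lck-cre lines run above the control lines throughout and reach 50% at ranks 13 to 22, against ranks 30 to 39 in control samples.

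The Lck-cre samples differed among themselves. Replicate 8 had the most 5′ balance point (17.4), the lowest Trac (274 FPKM) and the highest Sting1 (232 FPKM), and replicate 6 had the most 3′ balance point of its group (25.3), the highest Trac (455 FPKM) and the lowest Sting1 (85.4 FPKM). Replicates 5 and 7 lay between, at balance points of 22.1 and 22.5 with 221 and 130 FPKM of Sting1. With 4 samples no relation was tested. The number of segments at 1 FPKM or more was 45, 42, 35 and 27 in Lck-cre replicates 5 to 8, against 48, 52, 48 and 49 in control replicates 1 to 4.

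Single segments also changed their share. The 4 segments from Traj61 to Traj58 together held 25.1, 21.2, 25.3 and 32.9% in Lck-cre replicates 5 to 8, against 11.8, 9.82, 14.9 and 13.6% in control replicates 1 to 4. Traj58 alone held 12.3 ± 2.46% in Lck-cre and 5.98 ± 1.13% in control samples, and Traj49 held 9.94 ± 1.12% and 5.44 ± 1.10% in the same order (SD, n = 4 each). Traj9 held 0.400 ± 0.154% in Lck-cre and 2.56 ± 0.457% in control samples. The share was higher in every Lck-cre sample in 7 members (Traj61, Traj60, Traj59, Traj58, Traj49, Traj45 and Traj43) and lower in 10 (Traj24, Traj18, Traj11, Traj9, Traj8, Traj6, Traj5, Traj3, Traj2 and Traj1). With every gene divided by the summed Traj FPKM in the same way, 37.7% of the 28851 genes with a value above 0 lay higher and 0.548% lower. That sum was lower in Lck-cre samples, so the division itself moves other genes up. These percentages are therefore no like background for the members, which are set against their own sum.

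A fit with every gene divided by the summed Traj FPKM of its sample put a test on the shares. By limma 10 of the 49 tested segments rose and 27 fell relative to that sum, against 79.2% and 0.989% of all genes. On this scale the median log2 change over all genes was 0.59, since the sum itself was lower in Lck-cre samples. The percentages of all genes given here are therefore no like background for the segments. Moderation had 1686 prior degrees of freedom there, against 4.17 on the FPKM scale, so a segment's own spread had almost no weight. With each gene's own spread, a setting added after the data were seen, 7 rose and 9 fell, against 74.7% and 0.34% of all genes. The 7 were Traj61, Traj60, Traj59, Traj58, Traj49, Traj45 and Traj43, and the 9 were Traj30, Traj11, Traj9, Traj8, Traj6, Traj5, Traj3, Traj2 and Traj1.

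GC content, length and mean level followed the changes less closely by rank than position did, and the difference was not tested. As a description, Spearman's rho with log2 change over the 49 tested segments was -0.23 for GC content, 0.15 for length and 0.27 for mean level. Among the 9 pseudogenes, 5 were tested, of which 2 rose (Traj61 and Traj60, at the 5′ end) and 3 fell (Traj14, Traj8 and Traj1, in the 3′ block). Of the 17 members without the motif 11 were tested, of which 3 rose and 5 fell, and of the 43 with it 38 were tested, of which 1 rose and 15 fell. The 3 rises without it were Traj61, Traj60 and Traj59, all at the 5′ end. Among all genes tested, 15.4% rose and 10.4% fell. Median levels were 1.47 FPKM without and 4.61 FPKM with the motif.

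Of the other segment classes, V alpha segments, the partners of J alpha in each join, moved in the same direction. Of 111 Trav genes tested 4 rose and 68 fell (median log2 change -0.76), and their summed level was 384, 501, 448 and 294 FPKM in Lck-cre replicates 5 to 8, against 668, 599.8, 567 and 554 FPKM in control replicates 1 to 4. Of 14 J segments of the beta chain (Trbj) 0 rose and 5 fell, with a median of -0.20 by limma. Both of the tested gamma chain J segments (Trgj) rose, as did 1 of 2 of the delta chain (Trdj). Over all genes 15.4% rose and 10.4% fell. The differences between classes were not tested.

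Around the array, Trdc, the constant region of the delta chain upstream of Traj61 that a V alpha to J alpha join deletes, rose. It had 57.5, 42.0, 47.5 and 61.7 FPKM in Lck-cre replicates 5 to 8, against 25.6, 27.5, 27.7 and 27.9 FPKM in control replicates 1 to 4 (log2 change 0.91, SE 0.11, adjusted p = 0.00619 by limma). All Lck-cre samples lay above all controls. Dad1, a housekeeping gene beyond Trac, averaged 77.9 ± 5.75 FPKM in Lck-cre and 72.1 ± 5.99 FPKM in control samples (SD, n = 4 each; adjusted p = 0.322 by limma). Abhd4, another neighbour, rose, at 1.85 ± 0.259 FPKM in Lck-cre and 1.18 ± 0.225 FPKM in control samples without overlap (log2 change 0.48, adjusted p = 0.0251 by limma).

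Of 30 genes of J alpha rearrangement and access to the locus, 3 rose and 4 fell by limma, against 15.4% and 10.4% of all genes, with a median log2 change of -0.03. Rag1 and Rag2, the recombinase subunits, fell, with 538 ± 86.2 and 48.0 ± 8.05 FPKM in Lck-cre and 802 ± 71.4 and 68.1 ± 4.82 FPKM in control samples (SD, n = 4 each). Nipbl, the loader of cohesin, fell to 32.9 ± 2.20 FPKM in Lck-cre, against 44.5 ± 5.99 FPKM in control samples, and Lef1, a transcription factor that binds the TCR alpha enhancer, was the fourth to fall. Hmgb2, a cofactor of RAG cleavage, and Smc1a and Smc3, subunits of cohesin, rose. Hmgb2 averaged 346 ± 39.8 FPKM in Lck-cre and 238 ± 30.2 FPKM in control samples.

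Bcl2l1 encodes the survival protein Bcl-xL, which is known to prolong DP life and with it the use of 3′ J alpha segments, and it did not pass. Bcl2l1 averaged 130 ± 12.3 FPKM in Lck-cre and 138 ± 8.66 FPKM in control samples (log2 change -0.09, 95% confidence interval -0.28 to 0.10, adjusted p = 0.437 by limma). Dntt, which adds untemplated bases at the joins, averaged 1040 ± 97.9 FPKM in Lck-cre and 1062 ± 23.5 FPKM in control samples (SD, n = 4 each; adjusted p = 0.806 by limma). By limma the calls of Rag1 and Rag2 ended without either female, which leaves the males alone, with adjusted p of 0.0572 to 0.0725. That of Rag2 also ended without control replicate 2 (adjusted p = 0.0501). Both ended with no filter on low values (0.0674 for Rag1 and 0.0692 for Rag2) and with each gene's own spread (0.0671 and 0.0769).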

How the data were processed

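Sequencing libraries from total RNA of 4 Lck-cre and 4 control samples were analysed. The submitters' processing notes name HISAT and Bowtie2, with versions, quantifier, annotation, build and strandedness not given in the sources used here. FPKM and TPM per gene were computed by the authors, per the file headers. The deposited coverage signal is per base and not scaled by depth. Entries sharing a gene ID were summed, and no Traj entry shared one.

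The fit covered the 12337 genes that reached 1 FPKM in 4 or more samples, as log2(FPKM + 0.5). It used limma 3.58.1 (R 4.3.3) with genotype, sex and a variance trend. P-values were two-sided, Benjamini-Hochberg adjusted over all genes and called under 0.05. Changes on this scale are understated for low genes. The scripts were tested on simulated data. Sums, shares and ranks (pandas 2.3.3) carry no test. Members, gene lists and tests were chosen with earlier results of these data known. Named by rule were the 5 highest, first 5, last 5, 5 largest falls and up to 5 largest rises among tested segments, Sting1, Trac and the context genes with the smallest adjusted p. Other segments were named after their values were seen. Sequences came from GENCODE M21. Of the marker genes, Tcrg-C4 was not found. A gene that the rule names is not reported here.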

Additional observations from a re-analysis of the deposited data

Results flagged for a closer look

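Among 72 sets of 4 samples examined (each named gene and each array measure, per group), 1 held a sample far from the other 3, where chance alone would set apart about 1 in 20. Dntt lay at 1097 FPKM in control replicate 4, against 1047 to 1055 FPKM in the other control samples, a gap wider than their own range. No Traj segment named by the rule and no summed level, share or balance point of the array had such a sample in either group.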

How the results depend on the processing

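The ratio of summed Traj FPKM stayed between 0.608 and 0.692 and the difference in mean rank between -11.7 and -9.02 with TPM, median-of-ratios or scaled coverage values, the filter on the mean, males only and each sample left out. Of 24 called segments (limma), the count was 7 with no filter and 7 at an adjusted p under 0.01, 13 in males only, and 13 to 32 with 1 sample left out (13 without Lck-cre replicate 5 or control replicates 1 or 2). Over all genes, 3180 calls became 1056, 512, 652 and 647 to 3889 in the same order. The fits without either female rest on the males alone, as the males-only fit does. With each gene's own spread, added after seeing the data, limma's fit called 0 segments (20 at an unadjusted p under 0.05, lowest adjusted p 0.0548). Over all genes it called 6 (4591 at an unadjusted p under 0.05), so the calls rest on moderation. TPM values gave 4 segments up and 26 down, and 1300 genes up and 2067 down, against 1901 and 1279 with FPKM. Relative to the Traj sum, 37 calls became 16 with no filter and 16 with own spread. The log2 change of Traj53, not called, was -0.02, and 0.028 with quantile normalization, 0.005 with a pseudocount of 1, 0.716 in males only and -0.597 to 0.716 with 1 sample left out. Traj52 and Traj38, not called either, ran from -0.769 to 0.005 and from -0.836 to 0.075 with 1 sample left out, and Traj38 was 0.075 in males only. Dntt ran from -0.073 to 0.03 with 1 sample left out, and was -0.109 to -0.128 with TPM, quantile normalization or scaled coverage. None of the 24 calls held under all 20 alternatives, since own spread ended each. The causes were not tested. No paired analysis was possible because the groups share no replicate numbers. Low coverage limits the 3′ segments in Lck-cre samples.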

Other observations

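Several members of the 5′ block varied more between samples of a group than between groups. Traj53 had 0.307, 1.05, 4.76 and 4.70 FPKM in Lck-cre replicates 5 to 8, and 3.32, 4.04, 1.87 and 0.391 FPKM in control replicates 1 to 4. Traj50, not tested, reached 4.61 and 3.61 FPKM in Lck-cre replicates 5 and 8 and 2.97 FPKM in control replicate 4, and lay below 1 FPKM in the other 5 samples. Traj48, also not tested, reached 2.17 and 4.12 FPKM in Lck-cre replicates 6 and 8 and 3.73 FPKM in control replicate 2.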
